A study of Mus musculus with 98 samples.

Results

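The endothelium of the newborn thymus was examined here as 1 pool, across all genes, in mice carrying 1 inactive copy each of *Tbx1* and *Crkl*. The pool holds every cell whose deposited label is EnA, EnC or EnVL, the arterial, capillary, and venous and lymphatic endothelial subtypes, and it counted 1665 of the 21451 labelled cells of the newborn data set. Live Ter119-CD45- cells had been sorted from the thymus at birth (P0), fixed in RNAprotect and captured with a 3′ single-cell kit, in which each transcript molecule is counted once by its unique molecular identifier (UMI). There were 3 libraries labelled *Tbx1*+/-*Crkl*+/- and 3 of wild-type (WT) littermates, and the 2 groups held 800 and 865 endothelial cells. The *Tbx1* allele carries lacZ and the *Crkl* allele is a germline null made with Cre (tm1d). Both alleles are carried by every cell of the animal, so a difference seen in endothelial cells need not begin in them. The mice came from *Tbx1*+/- males and *Crkl*+/- females, and the sources used here do not give the sex of the pups.

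Endothelial cells line the vessels through which T cell progenitors enter the thymus and mature T cells leave it. They carry selectins and adhesion molecules for leukocyte entry, tight junction proteins such as claudin-5, and receptors for vascular endothelial growth factor, and they differ between arteries, capillaries, veins and lymphatics. *Tbx1* encodes a T-box transcription factor required for the pharyngeal arches and their arteries and for lymphatic vessel growth. *Crkl* encodes an adaptor protein downstream of growth factor receptors and integrins. Both lie in the region of mouse chromosome 16 that corresponds to the one lost in human DiGeorge syndrome, in which the thymus is small or missing.

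The libraries differed in depth. Endothelial sums held 382359, 934918 and 655169 UMIs in the *Tbx1*+/-*Crkl*+/- libraries, from 152, 368 and 280 cells. Those of WT held 513716, 523236 and 1820524 UMIs, from 205, 178 and 482 cells. The median endothelial cell held 2107 to 2305 UMIs in *Tbx1*+/-*Crkl*+/- and 2222 to 3261 in WT, and mitochondrial transcripts made up 1.33 to 2.03% of the endothelial UMIs. All 22 general endothelial genes on the list fixed for endothelial identity were tested. Their summed level was 9376 to 11981 counts per 1000000 endothelial UMIs (CPM) in *Tbx1*+/-*Crkl*+/- against 11314 to 12614 in WT. The labels were themselves assigned from gene expression, so these levels are no independent check of them. No 2 libraries shared more than 5 cell barcodes.

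RNA of other cell types was present in the endothelial sums of all 6 libraries. The summed level of 15 thymic epithelial genes was 5369, 10064 and 6194 CPM in *Tbx1*+/-*Crkl*+/- and 4370, 6550 and 6212 in WT, and all 13 of them that were tested had a positive log2 fold change, with none passing. Without the second *Tbx1*+/-*Crkl*+/- library 8 of the 13 were positive, and their median of 0.34 was then 0.12, beside 0.53 with the same number of cells of each subtype. That of 14 fibroblast genes was 1025 to 2390 CPM in *Tbx1*+/-*Crkl*+/- and 1594 to 2482 in WT, and all 11 of them that were tested had a negative log2 fold change, with a median of -0.28 and none passing. *Col14a1*, a fibril-associated collagen, was the one with separate groups, at a log2 fold change of -1.19 (SE 0.39, adjusted p 0.999 by edgeR). With 1 library left out the median of the fibroblast genes ran from -0.05 without the first *Tbx1*+/-*Crkl*+/- library (7 of 12 negative) to -0.48 without the third, and it was -0.09 with 7 of 10 negative with the same number of cells of each subtype and -0.18 in sums thinned to the smallest total. The summed level of 13 mural genes was 288 to 800 and 486 to 656 CPM, with 9 of 11 tested positive and a median of 0.14. That median ran from -0.02 without the third *Tbx1*+/-*Crkl*+/- library to 0.43 without the first, and it was -0.05 in thinned sums, 0.06 with a replicate block and 0.21 with the same number of cells of each subtype. Haemoglobin and other red cell genes summed to 228, 380 and 61.1 CPM in *Tbx1*+/-*Crkl*+/- and 17.5, 112.8 and 113.2 in WT. Thymocyte genes summed to 26.2, 245 and 61.1 CPM against 50.6, 42.05 and 35.2, and macrophage genes to at most 24.4 CPM in any library, with *C1qc* and *Aif1* at 0 in all 6. Mesothelial genes reached at most 7.79 CPM in any library. The 5 nuclear RNAs listed as a sign of RNA quality had a median log2 fold change of 0.11, with 4 positive, and none was positive without the third *Tbx1*+/-*Crkl*+/- library (median -0.18) and 1 without the third WT library (-0.11), while the median was 0.33 without the second *Tbx1*+/-*Crkl*+/- library. The groups overlapped in each of these sums, and the part of this RNA in the results below was not tested unless a value is given.

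The share of endothelium in the nonepithelial stroma was compared first, which asks whether the genotype changed the makeup of the stroma. Endothelial cells made up 17.9, 14.6 and 14.7% of the nonepithelial stromal cells in *Tbx1*+/-*Crkl*+/- and 12.3, 10.6 and 15.0% in WT, or 15.7% ± 1.89 (SD, n = 3) against 12.6% ± 2.22 (n = 3). One WT library lay above the lower 2 of the other group, and the difference of 3.08 percentage points gave p = 0.30 in a two-sided exact permutation test, where 3 against 3 libraries cannot go below 0.10. Without the WT library numbered 3 the difference was 4.27 points and the groups did not overlap (exact permutation p = 0.20). With any other library left out the groups overlapped, at differences of 1.99 to 3.64 points. Of all labelled cells, epithelium included, endothelium was 8.15% ± 1.10 in *Tbx1*+/-*Crkl*+/- (n = 3) and 7.62% ± 1.65 in WT (n = 3), with p = 0.60 in the same exact permutation test.

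The makeup of the pool was also compared. Capillary cells (EnC) were its main part in every library, with 69.1, 70.4 and 68.2% in *Tbx1*+/-*Crkl*+/- and 64.9, 75.3 and 70.3% in WT. Venous and lymphatic cells (EnVL) made up 23.7, 22.8 and 28.2% against 25.9, 18.5 and 21.2%. Arterial cells (EnA) were few, at 7.24, 6.79 and 3.57% against 9.27, 6.18 and 8.51%. All 3 subtypes overlapped between the groups (exact permutation p = 0.80, 0.40 and 0.30, n = 3 against 3). Over these 5 shares the Benjamini-Hochberg adjusted p of the exact permutation tests was 0.67 to 0.80, and arterial cells numbered only 10 to 41 per library, too few for a test of their own.

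*Tbx1* and *Crkl* were read in every library before any other gene, as a check of the labels. *Tbx1* (chromosome 16, 18580979 to 18590671, minus strand, GRCm38) gave 0, 0 and 1 endothelial UMIs in the *Tbx1*+/-*Crkl*+/- libraries and 4, 0 and 1 in WT. The floor of 3 UMIs stood at 7.85, 3.21 and 4.58 CPM in the first group and 5.84, 5.73 and 1.65 CPM in WT, so a difference in *Tbx1* was not detectable at this depth, and the gene did not pass the filter on low counts. Of the 6 UMIs, 5 lay in EnVL cells. In the 2 deeper libraries of unfixed WT thymus at P0 from the age series of the same study, with 283 and 291 endothelial cells, *Tbx1* was at 12.6 and 8.68 CPM, and 54 of its 63 UMIs lay in EnVL, the subtype that holds the lymphatic cells. By contrast, it was at 0 CPM in each of 6 bulk libraries of sorted CD31+ cells from WT newborns. The study itself reports *Tbx1* in the nonepithelial stroma only at its earliest embryonic age, in fibroblasts and proliferating cells.

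*Crkl* (chromosome 16, 17451987 to 17487434, plus strand, GRCm38) was at 26.2, 28.9 and 25.9 CPM in the endothelium of the *Tbx1*+/-*Crkl*+/- libraries and at 31.1, 28.7 and 24.2 in WT. The groups overlapped. The log2 fold change was -0.02 (SE 0.32) and the adjusted p of edgeR's quasi-likelihood test 0.999. Over all labelled cells *Crkl* stood at 24.1, 23.6 and 26.9 CPM against 22.99, 25.1 and 18.4. Reads of this kit come from the 3′ end of transcripts, and which part of *Crkl* the null allele lacks is not given in the sources used here, so these counts neither support nor contradict the genotype labels. The group is called by its label in what follows.

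Genes were then compared between the genotypes in the pooled endothelium, with the UMIs of each library summed and the 6 libraries as replicates. In the *Tbx1*+/-*Crkl*+/- libraries 1 gene rose and none fell at an adjusted p under 0.05, out of 7957 genes tested (0.0126%). The gene was *Zbtb16*, which encodes the zinc finger transcription factor PLZF, known for its part in innate-like T cells and as a gene that glucocorticoids induce. An unadjusted p under 0.05 was reached by 273 genes, of which 157 were higher and 116 lower in *Tbx1*+/-*Crkl*+/-, and DESeq2 also called 1 gene, *Zbtb16*. The median log2 fold change over all genes was 0.00. In the plot of fold change against level, *Zbtb16* stands apart from the genes of its own level.

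**Figure D1:**
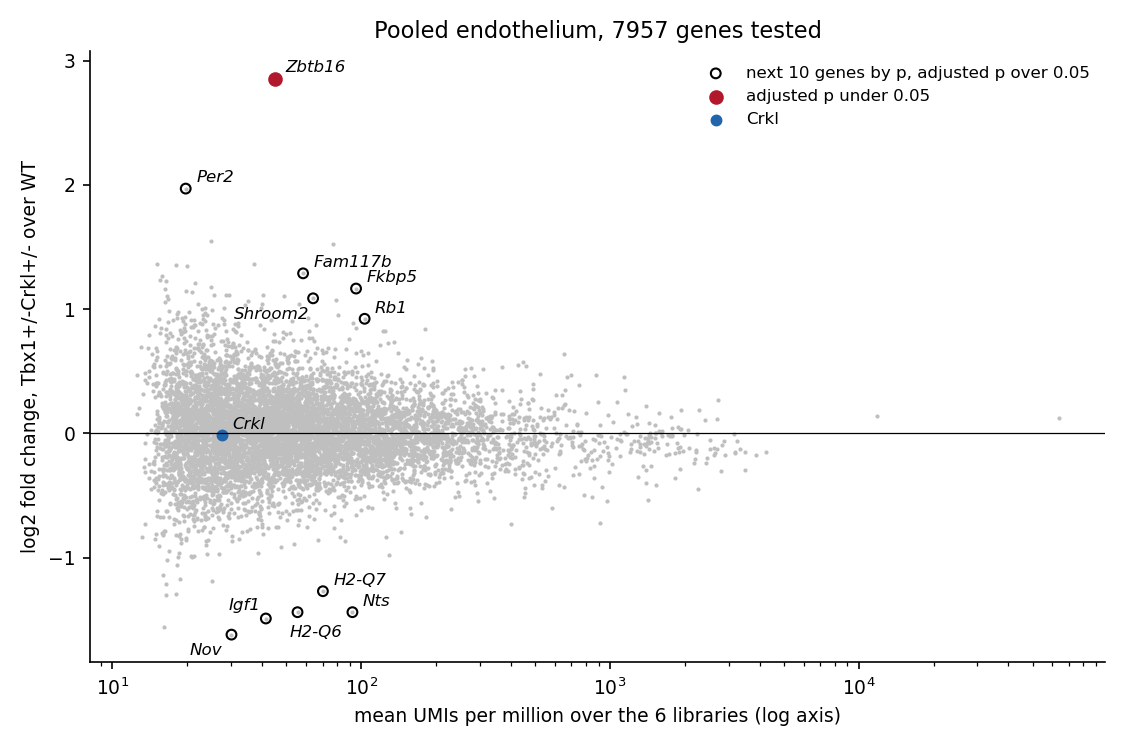
Log2 fold change between *Tbx1*+/-*Crkl*+/- and WT (y axis) against the mean level in CPM (x axis, log scale) for the 7957 genes tested in pooled endothelium. The filled red point is *Zbtb16* at 2.86, the 10 open circles are the genes with the next smallest p, none of which passed, and the blue point is *Crkl* at -0.02.

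*Zbtb16* (chromosome 9, 48654297 to 48836222, minus strand, GRCm38) was counted 53, 60 and 27 times in the endothelium of the *Tbx1*+/-*Crkl*+/- libraries and 4, 2 and 25 times in WT. This gave 138.6, 64.2 and 41.2 CPM against 7.79, 3.82 and 13.7. The lowest *Tbx1*+/-*Crkl*+/- library lay above the highest WT library, and the first *Tbx1*+/-*Crkl*+/- library stood well above the other two. The log2 fold change was 2.86 (SE 0.43, n = 3 against 3), with an adjusted p of 0.0077 in edgeR's quasi-likelihood test. In the 2 unfixed WT libraries at P0, which were prepared apart from the fixed ones and give levels only, the gene was at 4.43 and 12.7 CPM, in the range of the fixed WT libraries. Among the 6 bulk libraries of sorted CD31+ cells from WT newborns, it lay between 0 and 17.8 CPM with a median of 2.47.

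The *Zbtb16* signal was spread over many endothelial cells. At least 1 UMI was found in 42 of 152, 53 of 368 and 22 of 280 endothelial cells of the *Tbx1*+/-*Crkl*+/- libraries, which is 27.6, 14.4 and 7.86%, and no cell held more than 4. In WT it was found in 4 of 205, 2 of 178 and 21 of 482 cells, or 1.95, 1.12 and 4.36%. The exact 95% binomial intervals of these shares, which cover counting error only, ran from 20.7 to 35.5% in the first *Tbx1*+/-*Crkl*+/- library and from 4.99 to 11.7% in the third, and that of the third overlapped the 2.72 to 6.58% of the deepest WT library. In epithelial cells of the same libraries, whose median depth was 2267 to 2783 UMIs in *Tbx1*+/-*Crkl*+/- and 2734 to 4106 in WT, the shares were 2.71, 4.36 and 1.30% against 1.20, 0.661 and 1.19%. The endothelial share was thus above that of the epithelium in each of the 6 libraries. In fibroblasts the shares were 20.99, 14.49 and 15.72% against 4.52, 3.26 and 11.83%. In mural cells (pericytes and vascular smooth muscle) they were 24.20, 15.04 and 13.53% against 5.49, 2.64 and 9.42%. Only in the first *Tbx1*+/-*Crkl*+/- library was the endothelial share above those of fibroblasts and mural cells. Median depth was higher in those classes than in endothelium in every library, and the shares were not adjusted for depth.

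Because *Zbtb16* is known from T lineage cells, markers of lymphocytes were read in the same cells. Of the 117 *Tbx1*+/-*Crkl*+/- endothelial cells with a *Zbtb16* UMI, 10 also held a UMI of *Ptprc*, *Cd3d*, *Cd3e*, *Cd3g* or *Lck* (8.55%), and of the 683 without *Zbtb16* 50 did (7.32%). In WT this was 0 of 27 cells with *Zbtb16*, and 29 of 838 without (3.46%). These shares pool the libraries of a group, which differed in marker UMIs. *Ptprc* gave 0, 19 and 2 UMIs in the endothelium of the *Tbx1*+/-*Crkl*+/- libraries, and shares within a library were not compared. All 117 and all 27 cells with *Zbtb16* held a UMI of at least 1 of the endothelial genes *Pecam1*, *Cdh5*, *Kdr*, *Egfl7* and *Cldn5*. So did 675 of the 683 *Tbx1*+/-*Crkl*+/- cells without *Zbtb16* (98.8%) and 813 of the 838 in WT (97.0%). Nearly every cell of the pool held such a UMI, so this does not tell the *Zbtb16* cells apart.

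The call on *Zbtb16* was checked against the choices made. It passed under 13 of 14 alternatives, with log2 fold changes from 2.34 upwards to 3.699, and 1 alternative ended the call: without the second WT library, the one with 2 UMIs, the log2 fold change was 2.62 and the adjusted p 0.056 in edgeR. Without the first *Tbx1*+/-*Crkl*+/- library, the highest, the log2 fold change was 2.34 and the adjusted p 0.047 in edgeR, only just under the threshold. With the same numbers of EnA, EnC and EnVL cells drawn from every library the log2 fold change was 3.65, and the adjusted p 0.000703.

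The subtypes were fitted on their own where every library had at least 20 cells. In EnC 1 of 6751 genes was called (0.0148%), again *Zbtb16*, and 223 had an unadjusted p under 0.05. Its level there was 138.5, 72.1 and 50.9 CPM against 9.43, 5.21 and 17.2, and the log2 fold change 2.63 (SE 0.41, adjusted p 0.00316 by edgeR). In EnVL none of 3207 genes passed (0%), with 140 at an unadjusted p under 0.05 and none called by DESeq2. *Zbtb16* fell under the count filter in EnVL, where it was counted 11, 8 and 4 times against 1, 0 and 3, or 137.4, 40.6 and 22.7 CPM against 7.26, 0 and 7.54, so the groups did not overlap in that subtype either. In EnA it was counted 4, 4 and 0 times against 0 in each WT library.

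*Zbtb16* was also read in the other stromal classes. In fibroblasts it was at 81.3, 56.6 and 64.4 CPM in *Tbx1*+/-*Crkl*+/- and 16.47, 7.40 and 21.8 in WT, with a log2 fold change of 2.01 (SE 0.30) that did not pass on its own (adjusted p 0.073 by edgeR). In mural cells, the pericytes and vascular smooth muscle, it was at 99.9, 61.9 and 55.4 CPM against 20.4, 7.37 and 19.3 and passed at a log2 fold change of 2.10 (SE 0.30, adjusted p 0.00743). In thymic epithelium (TEC) it was at 9.87, 17.8 and 5.05 CPM against 3.66, 1.55 and 2.69. The groups were separate in all 4 classes. The effect in endothelium was larger than that in fibroblasts by 0.92 on the log2 scale (SE 0.38), which did not pass the test of the difference itself (adjusted p 0.62, edgeR), so the rise was not shown to be particular to endothelium.

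*Fkbp5* and *Per2*, both among the next genes by p in endothelium, were read in the same classes. *Fkbp5* passed in mural cells, at 111, 109 and 84.4 CPM in *Tbx1*+/-*Crkl*+/- against 48.5, 43.8 and 41.5 in WT (log2 fold change 1.17, SE 0.20, adjusted p 0.033 by edgeR), and did not in fibroblasts, at 162, 154 and 167.9 CPM against 93.9, 68.8 and 87.9 (adjusted p 0.21). *Per2* was at 24.1, 25.9 and 24.5 CPM against 16.47, 12.1 and 13.54 in fibroblasts (log2 fold change 0.79, adjusted p 0.31), and overlapped in mural cells. For neither did the difference in effect between endothelium and fibroblasts pass, at 0.27 (SE 0.19, adjusted p 0.83) and 1.19 (SE 0.40, adjusted p 0.46).

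**Figure D2:**
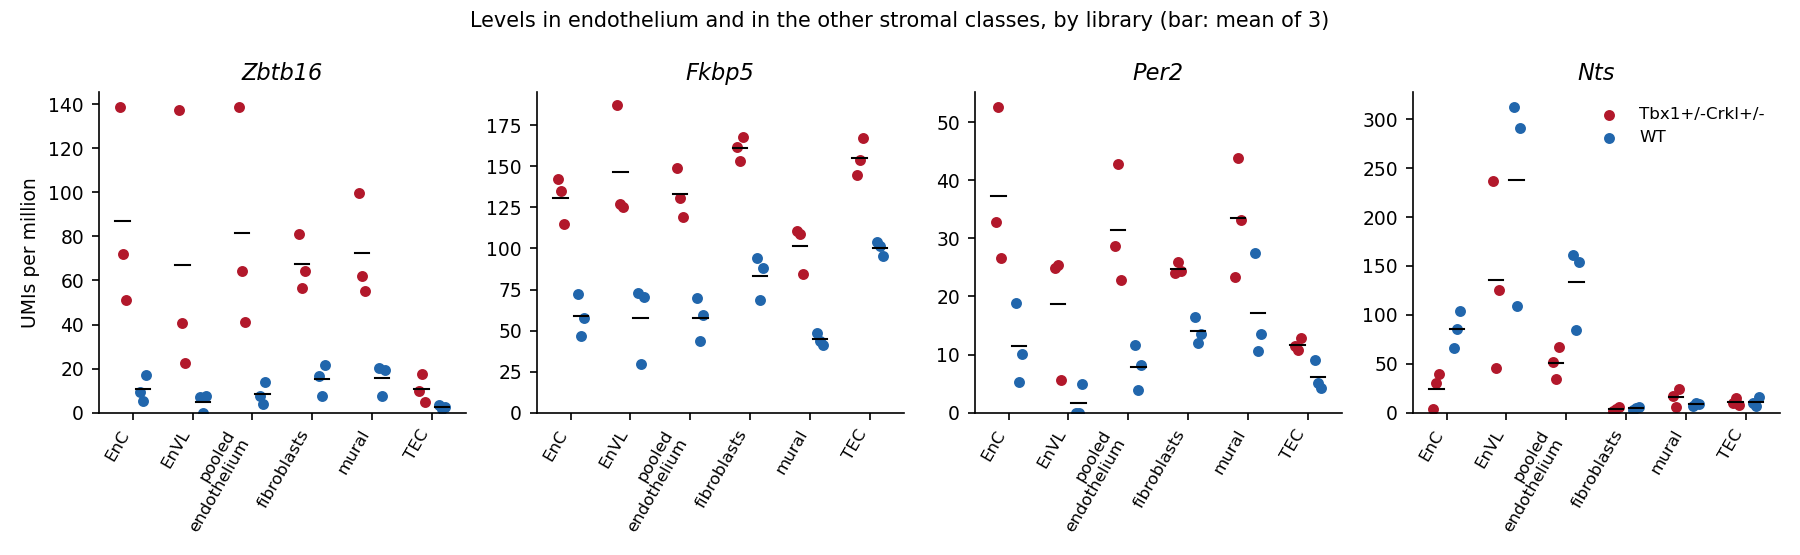
Levels of *Zbtb16*, *Fkbp5*, *Per2* and *Nts* in CPM (y axis, each panel on its own linear scale from 0) in the capillary and the venous and lymphatic subtypes, pooled endothelium, fibroblasts, mural cells and epithelium (x axis). Each point is 1 library, red for *Tbx1*+/-*Crkl*+/- and blue for WT, and bars are means of 3; *Zbtb16* and *Fkbp5* are separate between the groups in every class shown, while *Nts* is separate in EnC and pooled endothelium and low in the other 3 classes.

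No other gene passed, and the 10 next by p are given as values. Of these, 5 were higher and 5 lower in *Tbx1*+/-*Crkl*+/-. In all 10 the groups of libraries were separate, as was so for 607 of the 7957 genes tested (7.63%), 293 with *Tbx1*+/-*Crkl*+/- above WT (3.68%) and 314 with it below (3.95%). With no filter on low counts 8 of the 10 passed, *Shroom2* and *Rb1* being the others. With DESeq2 and each other alternative that kept all 6 libraries and the filter, none of the 10 passed.

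Among the 5 higher genes were *Fkbp5* and *Per2*. *Fkbp5*, which encodes a co-chaperone of steroid receptors (chromosome 17, 28399094 to 28517527, minus strand, GRCm38), was at 149.1, 130 and 119.1 CPM in *Tbx1*+/-*Crkl*+/- and 70.1, 44.0 and 59.3 in WT. The log2 fold change was 1.17 (SE 0.25, adjusted p 0.23 by edgeR). The groups were separate. *Per2*, a repressor of the circadian clock (chromosome 1, 91415982 to 91459324, minus strand, GRCm38), was at 28.8, 42.8 and 22.9 CPM against 11.7, 3.82 and 8.24, a log2 fold change of 1.97 (SE 0.42, adjusted p 0.23) that rests on 66 and 23 UMIs. *Rb1*, the retinoblastoma tumour suppressor, was at 149.1, 142 and 114 CPM against 79.8, 68.8 and 64.8 (log2 fold change 0.92, adjusted p 0.49). Each of the 3 *Rb1* values lay above all of WT. *Shroom2*, an actin-binding protein, was at 88.9, 99.5 and 73.3 CPM against 50.6, 32.5 and 39.5. *Fam117b*, whose role is not well known, was at 81.1, 125.1 and 42.7 CPM against 36.99, 28.7 and 35.7, so the third *Tbx1*+/-*Crkl*+/- library lay close to WT. In unfixed WT endothelium *Fkbp5* was at 26.9 and 24.4 CPM, *Per2* at 2.38 and 4.00, and *Rb1* at 18.4 and 18.7. *Fkbp5* and *Rb1* were thus below all 3 fixed WT libraries there, and *Per2* was on both sides of the lowest of them.

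The 5 lower genes were led by *Nts*, which encodes the peptide neurotensin (chromosome 10, 102481756 to 102490486, minus strand, GRCm38). It was at 52.3, 34.2 and 67.2 CPM in *Tbx1*+/-*Crkl*+/- and 162, 84.1 and 154 in WT, a log2 fold change of -1.44 (SE 0.29, adjusted p 0.23 by edgeR). The second WT library lay nearer to the other group than to its own. *Nts* was a gene of EnVL foremost in unfixed WT endothelium too, with 571 of 667 UMIs in that subtype, and in EnVL the groups overlapped, at 237, 45.7 and 125.1 CPM against 312, 109 and 291. In EnC it was at 3.65, 30.03 and 39.9 CPM against 65.98, 85.96 and 104, with no overlap (log2 fold change -1.71, adjusted p 0.24). The unfixed WT libraries stood at 57.3 and 2.81 CPM in EnC, the second of them below every *Tbx1*+/-*Crkl*+/- value. *Igf1*, a growth factor, was at 15.7, 18.2 and 27.5 CPM against 81.8, 68.8 and 36.3. It was more abundant in fibroblasts, at 128.6, 117.9 and 108.4 CPM against 152.3, 133.7 and 175.5, and the part of fibroblast RNA in its endothelial values was not tested. *Nov* (also Ccn3), a matricellular protein, was at 2.62, 15.0 and 24.4 CPM against 48.7, 38.2 and 51.6. In unfixed WT endothelium *Nts* was at 86.2 and 138 CPM, *Igf1* at 89.6 and 45.4, and *Nov* at 33.7 and 21.7. The lower *Nov* value lay within the range of the *Tbx1*+/-*Crkl*+/- libraries, and the other values lay above that group.

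The other 2 of the lower genes were *H2-Q6* and *H2-Q7*, nonclassical class I genes of the major histocompatibility complex (MHC). Their sequences are close to those of other genes of the family, which makes their single counts uncertain. *H2-Q6* was at 13.1, 20.3 and 53.4 CPM in *Tbx1*+/-*Crkl*+/- and 91.5, 84.1 and 70.3 in WT. *H2-Q7* was at 18.3, 37.4 and 64.1 CPM against 81.8, 124.2 and 95.03. The third *Tbx1*+/-*Crkl*+/- library was the nearest to WT for both. Their log2 fold changes were -1.44 and -1.27, with adjusted p of 0.34 and 0.40 by edgeR. Without that library, the one that held the difference down, both passed, at -2.17 (adjusted p 0.00845) and -1.71 (0.048). Each passed in 2 of 14 alternatives, the other being no filter on low counts. In unfixed WT endothelium *H2-Q6* was at 46.7 and 32.7 CPM, within the range of the *Tbx1*+/-*Crkl*+/- libraries. *H2-Q7* was at 105 and 74.1 CPM there, above that group.

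**Figure D3:**
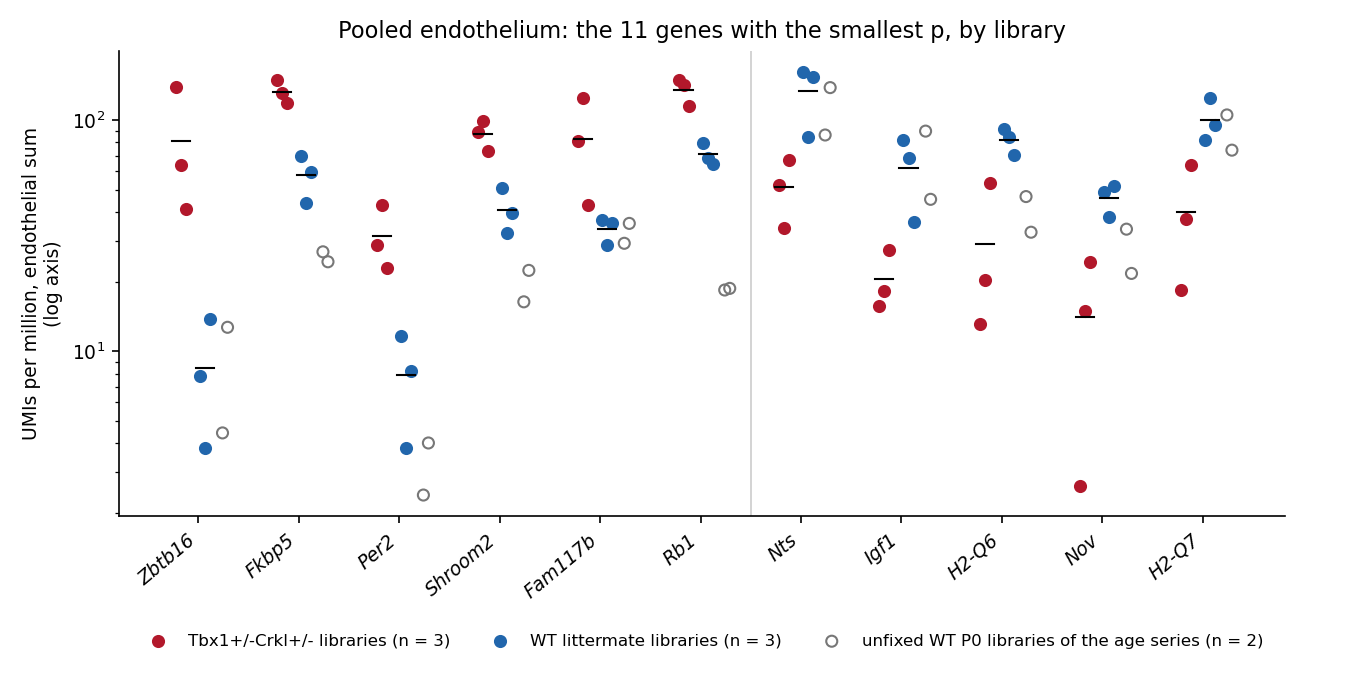
Level in CPM (y axis, log scale) of the 11 genes with the smallest p in pooled endothelium (x axis; 6 higher on the left, 5 lower on the right). Red points are the 3 *Tbx1*+/-*Crkl*+/- libraries, blue points the 3 WT libraries, black bars their means, and open circles the 2 unfixed WT libraries at P0; red and blue do not overlap for any of the 11 genes, and *Zbtb16* alone passed the test.

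The genes were then read by function, with the lists fixed for endothelial identity, signalling and state. *Zbtb16* is on none of these, and no member of them passed in either direction, so each list is given by its counts, its median log2 fold change beside the 0.00 of all genes, and its 2 members of smallest p. With 3 libraries a group the medians lean on single libraries. Counting also the lists of other cell types and RNA quality and the 3 written after values were seen, one of which holds *Zbtb16*, 24 lists had a median farther than 0.1 from 0. Of these, 21 moved by over 1.5 times when 1 library was left out, and 5 of these changed sign. Of the 8 lists with a median within 0.1 of 0, 7 changed sign in this way, so no direction is read from them. For lists farther than 0.1 from 0, medians that moved by over 1.5 times with a library left out or under another setting are therefore given beside the main one, as a range where there were several.

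Genes that mark endothelium in general were 6 positive and 16 negative of 22 tested, with a median of -0.06. With 1 library left out it ran from -0.20 without the first *Tbx1*+/-*Crkl*+/- library (18 negative) to -0.01 without the third (12 negative). *Ecscr*, a surface protein of endothelium, was at 207, 250 and 267 CPM in *Tbx1*+/-*Crkl*+/- and 292, 342 and 406 in WT (log2 fold change -0.54, adjusted p 0.999 by edgeR). *Ramp2*, the partner of the adrenomedullin receptor, was at 879, 803 and 708 CPM against 936, 1009 and 1486. Both were lower in all 3 *Tbx1*+/-*Crkl*+/- libraries, and the deepest WT library was the highest.

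Arterial genes had a median of -0.52, with 3 positive and 14 negative of 17 tested. *Fbln5*, an elastic fibre protein, was at 175.2, 212 and 160.3 CPM in *Tbx1*+/-*Crkl*+/- and 288, 227 and 313 in WT (log2 fold change -0.61, adjusted p 0.999). *Gja4*, a gap junction protein of arteries, was at 18.3, 68.5 and 54.9 CPM against 79.8, 53.5 and 126, with overlap. Arterial cells gave 7.32, 7.69 and 4.24% of the endothelial UMIs of the *Tbx1*+/-*Crkl*+/- libraries and 11.24, 7.37 and 7.78% of those of WT. With the same number of cells of each subtype drawn from every library the median of the list was -0.29 over 14 tested members, 9 of them negative, beside -0.29 for the venous list described next. Leaving out the first WT library gave -0.32 with 13 of 17 negative, and leaving out any of the other 5 gave -0.43 to -0.76.

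Capillary genes had a median of -0.02, with 6 of 13 positive. *Aplnr*, the apelin receptor, was at 241, 189 and 163.3 CPM against 251, 317 and 265 in WT, and *Timp4*, a protease inhibitor, at 102, 59.9 and 27.5 against 36.99, 30.6 and 45.6. Venous genes had a median of -0.26, with 10 of 12 negative. It was -0.15 without the first WT library, -0.16 without the first *Tbx1*+/-*Crkl*+/- one and -0.45 without the third *Tbx1*+/-*Crkl*+/- one. *Sele*, the E-selectin on which leukocytes roll, was at 86.3, 50.3 and 128 CPM against 162, 199 and 153, with a log2 fold change of -0.98 (SE 0.28) and an adjusted p of 0.80. The study also lists *Sele* as a top gene of a medullary fibroblast subtype, and the part of fibroblast RNA in its values was not tested. *Lrg1*, a glycoprotein that acts on TGF-beta signalling, was at 28.8, 31.02 and 27.5 CPM against 56.5, 53.5 and 45.6. Neither gene overlapped between the groups. Of the lymphatic genes 6 passed the count filter, 3 positive and 3 negative, with a median of 0.11 that ran from -0.21 without the third WT library to 0.35 without the first, and from -0.07 with no filter on low counts to 0.26 with a replicate block, and *Pard6g*, a polarity protein, was at 62.8, 42.8 and 56.5 CPM against 31.1, 42.05 and 28.01, while *Sned1*, a matrix protein, was at 2.62, 21.4 and 32.1 against 17.5, 55.4 and 23.1.

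The genes of leukocyte adhesion and progenitor homing had a median of -0.31, with 13 of 16 negative. The median was -0.16 without the first WT library (11 negative), -0.175 without the third WT library and -0.20 without the second *Tbx1*+/-*Crkl*+/- one. Beside *Sele*, the smallest p was that of *Cxcl12*, a chemokine that draws T cell progenitors, at 390, 644 and 360 CPM in *Tbx1*+/-*Crkl*+/- and 631, 696 and 784 in WT. The second *Tbx1*+/-*Crkl*+/- library lay within the range of WT. Genes of junctions and barrier had a median of -0.15, with 9 of 12 negative (-0.06 without the third and -0.27 without the first *Tbx1*+/-*Crkl*+/- library), and *Cldn5*, the main endothelial claudin, which itself lies in the chromosome 16 region syntenic with the DiGeorge interval, was at 819, 937 and 638 CPM against 1047, 982 and 1166 (log2 fold change -0.43, adjusted p 0.999). Genes that handle sphingosine-1-phosphate, which guides the exit of T cells, had a median of 0.09. *Plpp1* and *Lpar6* overlapped between the groups. Their *Tbx1*+/-*Crkl*+/- values reached beyond those of WT on both sides, at 100.7 to 280 CPM against 140 to 159 and at 150 to 243 against 208 to 214.

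Of the genes that respond to shear stress, all 11 tested were negative, with a median of -0.25. This held with 3 of the 6 libraries left out in turn. In the other 3 fits 9 were negative without the first WT library (median -0.13), 8 without the third *Tbx1*+/-*Crkl*+/- library (-0.18) and 9 without the third WT library (-0.26), and with the same number of cells of each subtype 7 were negative (-0.21). *Klf2*, the transcription factor that flow induces, was at 374, 268 and 270 CPM in *Tbx1*+/-*Crkl*+/- and 537, 394 and 554 in WT, a log2 fold change of -0.73 (SE 0.24, adjusted p 0.999). *Thbd*, the thrombin receptor thrombomodulin, was at 70.6, 68.5 and 82.4 CPM against 97.3, 87.9 and 105. Neither overlapped between the groups. In unfixed WT endothelium *Klf2* was at 1526 and 1360 CPM, above all 6 fixed libraries. Immediate early genes, which tissue dissociation can induce, had a median of -0.09 that was 0.06 with 11 of 16 positive without the third *Tbx1*+/-*Crkl*+/- library and -0.21 without the first, and *Fos* was at 1818, 1297 and 885 CPM against 1777, 1313 and 1648, while *Fosl2* was at 382, 363 and 244 against 327, 275 and 218. Heat shock genes had a median of 0.04, with *Hspa1b* at 118, 69.5 and 71.7 CPM against 130, 30.6 and 43.4 and *Dnajb1* at 73.2, 55.6 and 64.1 against 95.4, 66.9 and 72.0. *Hspa1b* has a near-identical copy, so its count is uncertain.

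Signalling genes were read by pathway. The list of vascular endothelial growth factor and angiopoietin signalling had a median of 0.00, and its smallest p belonged to *Angpt2*, a ligand that loosens vessels, at 36.6, 24.6 and 22.9 CPM against 7.79, 21.0 and 14.3 in WT, and *Vegfc*, the lymphatic growth factor, at 18.3, 15.0 and 7.63 against 31.1, 19.1 and 20.9. That of Notch genes was -0.15 (8 of 14 negative; -0.05 to -0.26 with 1 library left out, the ends being those without the first and the second *Tbx1*+/-*Crkl*+/- library). It was 0.08, with 5 of 11 negative, with the same number of cells of each subtype, and -0.09 in cells with more than 1000 genes. The 2 Notch genes of smallest p were *Jag1*, a ligand, at 34, 58.8 and 71.7 CPM against 114.8, 76.4 and 73.1 and *Nrarp*, a target, at 120.3, 139.1 and 59.5 against 114.8, 159 and 166. The median of TGF-beta and BMP genes was 0.01, with *Tmem100*, a BMP target of arterial endothelium, at 0, 27.8 and 19.8 CPM against 64.2, 42.05 and 41.2 and the ligand *Tgfb2* at 2.62, 15.0 and 12.2 against 27.3, 21.0 and 21.4. These 2 genes had no overlap, and the first *Tbx1*+/-*Crkl*+/- library was at 0 or 1 UMI for both.

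Genes near or downstream of the deleted ones were read as well. The list of the chromosome 16 region syntenic with the DiGeorge interval had 19 of 35 members of the deposited table tested and a median of 0.01. *Hira*, a histone chaperone of that region, was at 26.2, 20.3 and 21.4 CPM in *Tbx1*+/-*Crkl*+/- and 9.73, 13.4 and 7.14 in WT, a log2 fold change of 1.23 (SE 0.42, adjusted p 0.999), with no overlap. *Med15*, a Mediator subunit, was at 70.6, 49.2 and 80.9 CPM against 52.6, 38.2 and 40.6. Partners of CRKL and the fibroblast growth factor pathway had a median of 0.11 (11 of 16 positive) that ran from -0.02 without the third WT library to 0.18 without the first, and was 0.07 with no filter on low counts and 0.25 with the same number of cells of each subtype, with *Spry1*, a feedback inhibitor, at 152, 131.6 and 65.6 CPM against 114.8, 45.9 and 62.6 and the receptor *Fgfr1* at 39.2, 44.9 and 42.7 against 42.8, 22.9 and 24.2.

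Antigen presentation genes were negative in all 9 tested, with a median of -0.30. All 9 were negative without the first WT library too, at -0.50, and 7 were without the third *Tbx1*+/-*Crkl*+/- one, at -0.23. *H2-K1*, a classical MHC class I gene, was at 565, 762 and 740 CPM in *Tbx1*+/-*Crkl*+/- and 1090, 1131 and 1174 in WT, a log2 fold change of -0.73 (SE 0.25, adjusted p 0.999 by edgeR). *H2-D1* was at 1187, 1304 and 1027 CPM against 1481, 1514 and 2051. Neither overlapped between the groups, and the spread of *H2-K1* over the WT libraries was small. The 6 tested genes of nonclassical class I, a list written after *H2-Q6* and *H2-Q7* had been seen, were also negative, with a median of -0.40. Interferon-stimulated genes, many of which rise together with MHC class I, had a median of -0.21 with 17 of 19 negative (-0.10 without the third *Tbx1*+/-*Crkl*+/- library and -0.12 without the third WT library), and those of smallest p were *Stat2* at 183, 129 and 198 CPM against 157.7, 131.9 and 106.6 and *Ifitm2* at 594, 564 and 473 against 467, 726 and 932, both with overlap.

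Matrix, cytoskeleton and metabolism lists complete the account. Basement membrane genes had a median of -0.17 with 16 of 17 negative, and beside *Fbln5* the smallest p was that of *Col18a1*, the collagen that yields endostatin, at 196, 263 and 273 CPM against 327, 350 and 305 in WT. Fibroblast genes were negative in the same sums, with a median of -0.28, and their part in the matrix values was not tested. Genes of actin and migration had a median of -0.17 with 18 of 19 negative (-0.04 with 13 negative when the third WT library was left out, -0.10 when the third *Tbx1*+/-*Crkl*+/- one was and -0.29 when the first WT one was), *Vim* (vimentin) being at 1948, 2191 and 1641 CPM against 2233, 2609 and 2949 and *Tmsb10* (thymosin beta 10) at 1057, 1450 and 1134 against 1174, 1538 and 2027. Both *Vim* and *Tmsb10* were highest in the deepest WT library. Lipid uptake genes had a median of 0.14 (0.00 without the first WT library, 0.29 without the third, 0.04 in thinned sums and 0.06 with no filter on low counts), but *Tcf15*, a transcription factor of capillary endothelium that drives fatty acid uptake, was at 99.4, 92.0 and 82.4 CPM against 142, 166 and 171, a log2 fold change of -0.84 (SE 0.23, adjusted p 0.72), and *Pparg* was at 165, 136.9 and 85.5 against 109, 84.1 and 94.5.

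Hypoxia and glycolysis genes had a median of 0.17 with 12 of 18 positive, and of -0.17 with 6 of 18 positive when the second *Tbx1*+/-*Crkl*+/- library was left out. It was 0.38 without the third and 0.11 with the same number of cells of each subtype. *Pdk1*, a kinase that limits the entry of pyruvate into mitochondria, was at 70.6, 77.0 and 48.8 CPM against 44.8, 28.7 and 23.1, a log2 fold change of 1.10 (SE 0.30, adjusted p 0.72), and *Adm*, adrenomedullin, at 31.4, 50.3 and 29 against 23.4, 24.8 and 24.7. Cell cycle genes had a median of 0.23 with 14 of 16 positive. The median was 0.02 without the first WT library, where 7 of 18 were negative, 0.09 without the first *Tbx1*+/-*Crkl*+/- library, 0.15 without the second WT library and 0.44 without the third, and with no filter on low counts it was 0.13. *Top2a*, a topoisomerase of dividing cells, was at 115.1, 108.03 and 151.1 CPM against 27.3, 86 and 83.5, and *Cenpf*, a kinetochore protein, at 102, 106.96 and 90.1 against 40.9, 82.2 and 85.7. The first WT library was well below the other two for both. Mitochondrially encoded genes had a median of -0.22, with 11 of 13 negative (-0.12 without the first and -0.44 without the second *Tbx1*+/-*Crkl*+/- library, and -0.15 with the same number of cells of each subtype).

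**Figure D4:**
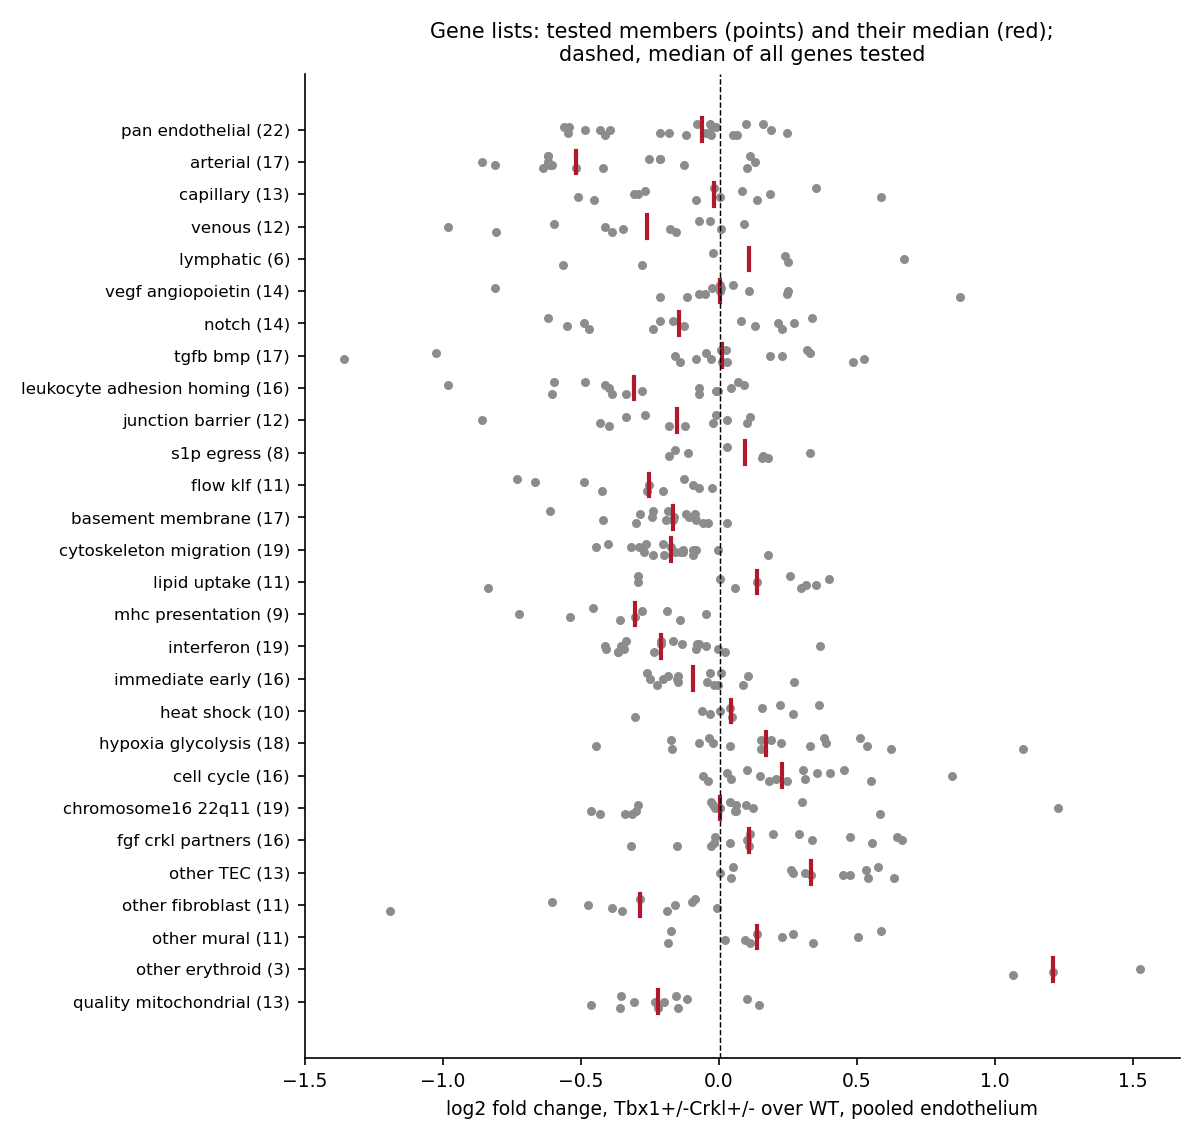
Log2 fold change between *Tbx1*+/-*Crkl*+/- and WT in pooled endothelium (x axis) for the tested members of each list (grey points; number tested in brackets) with the list's median (red bar) and the median of all 7957 genes (dashed line at 0.00). The arterial median is at -0.52 and that of the 3 tested haemoglobin genes at 1.21 (0.36 without the second *Tbx1*+/-*Crkl*+/- library), and no gene plotted here passed.

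Since *Zbtb16*, *Fkbp5* and *Per2* are all known as genes that glucocorticoids induce through their receptor, a list of such genes was written after their values had been seen. It therefore gives no independent evidence. Of its 18 tested members 13 were positive, 5 had separate groups with *Tbx1*+/-*Crkl*+/- above WT, and the median was 0.55 (0.39 to 0.75 with 1 library left out), beside 50.6% of all genes tested positive and 3.68% with such separate groups. Without *Zbtb16*, *Fkbp5* and *Per2* the median was 0.47, with 10 of 15 positive and 2 of 15 with such separate groups. *Hif3a*, a negative regulator of the hypoxia response, was at 20.9, 36.4 and 18.3 CPM against 15.6, 7.64 and 8.79, and *Per1* at 65.4, 54.6 and 47.3 against 38.9, 26.8 and 39.0, both without overlap and neither passing. *Tsc22d3*, which encodes the leucine zipper GILZ, overlapped at 169.997, 147 and 85.5 CPM against 79.8, 111 and 119.2, as did *Sgk1* at 1023, 825 and 485 against 664, 428 and 589. Clock genes, also listed afterwards, were positive in 9 of 10 tested, with a median of 0.29. It was 0.05 with 5 of 9 positive with the same number of cells of each subtype, 0.17 with 6 of 10 positive in thinned sums, 0.17 with no filter on low counts and 0.18 without the third WT library.

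Whether endothelium differed from fibroblasts in its response was asked with a test of the difference itself, over 12 sums with the library as a term. Here 17 of 11432 genes passed (0.149%), 3 with a higher effect in endothelium and 14 with a lower one, and 779 had an unadjusted p under 0.05. The 5 of smallest p were *Ccdc88c*, *H2-K1*, *Jag2*, *Cxcl12* and *Myo10*, and all 5 had the lower effect in endothelium. For 13 of the 17 the fold change farther from 0 was that of the fibroblasts, though none of the 17 passed in fibroblasts or endothelium alone.

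*Ccdc88c*, a scaffold of Wnt signalling, was at 138.6, 130 and 155.7 CPM in *Tbx1*+/-*Crkl*+/- endothelium against 230, 141 and 111 in WT, with overlap. In fibroblasts, where it was scarce, it was at 7.46, 11.1 and 13.9 CPM against 4.12, 3.29 and 2.71. The difference of the effects was -1.82 on the log2 scale (SE 0.30, adjusted p 0.023 by edgeR). *Jag2*, a Notch ligand, had 54.9, 80.2 and 104 CPM against 109, 97.5 and 82.9 in endothelium and 4.98, 15.9 and 12.6 against 2.62, 4.66 and 3.87 in fibroblasts (-1.82, SE 0.33, adjusted p 0.026).

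For *H2-K1* the larger fold change was that of endothelium. Its fibroblast level was 101.2, 229 and 188 CPM in *Tbx1*+/-*Crkl*+/- and 159, 136.5 and 153 in WT, a log2 fold change of 0.18 (SE 0.25), beside the -0.73 of endothelium. The difference of -0.90 (SE 0.16, adjusted p 0.024) passed, as it did against mural cells (-0.82, SE 0.14, adjusted p 0.015). *Cxcl12* was at 142, 203 and 140 CPM against 147, 123 and 147.9 in fibroblasts and had a difference of -0.82 (SE 0.15, adjusted p 0.026), and it did not pass against mural cells. *Nts*, not called against fibroblasts, passed against mural cells with a difference of -2.19 (SE 0.37, adjusted p 0.015).

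Several of the other 12 genes are markers of cells other than fibroblasts. *Cldn5* was at 11.6, 41.8 and 30.98 CPM in *Tbx1*+/-*Crkl*+/- fibroblasts and 21.7, 10.7 and 18.7 in WT fibroblasts, and the endothelial genes *Cd93* and *Icam2* were at 3.29 to 16.6 CPM in the 6 libraries there. The epithelial genes *Prss16*, *Krt8* and *Slc46a2* were higher in *Tbx1*+/-*Crkl*+/- fibroblasts without overlap, *Prss16* at 117, 240 and 181.8 CPM against 74.8, 90.98 and 77.0, while in endothelium it was at 233, 377 and 252 against 230, 243 and 214. *Ccdc88c* and *Jag2*, given above, were also more abundant in endothelium than in fibroblasts in each of the 6 libraries. The part of RNA from other cell types in these 17 calls was not tested. No gene passed when the second *Tbx1*+/-*Crkl*+/- library, the second WT library or the third WT library was left out, so the count of 17 rests on each of the 3.

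**Figure D5:**
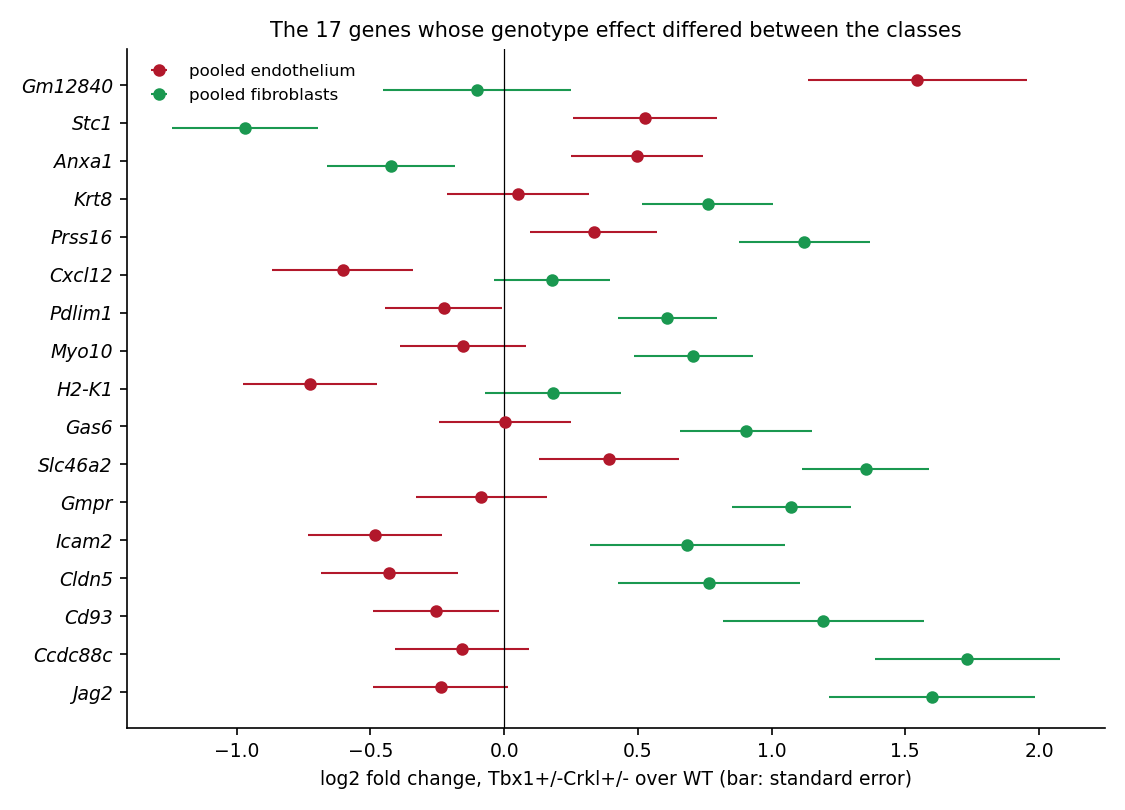
Log2 fold change between *Tbx1*+/-*Crkl*+/- and WT (x axis, bars are standard errors, n = 3 against 3) in pooled endothelium (red) and pooled fibroblasts (green) for the 17 genes whose effect differed between these classes. For *H2-K1* and *Cxcl12* the endothelial value is the one farther from 0, and for *Ccdc88c* and *Jag2* the fibroblast value.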

How the data were processed

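UMI counts per gene and cell of the newborn data set, and of the 2 unfixed WT libraries at P0, were deposited by the authors as whole counts without normalization. They had been made with Cell Ranger 3.1.0 per the labels, on build mm10, and the authors had removed doublets, contaminating clusters and cells with few genes or many mitochondrial UMIs. Some endothelial cells lie under the stated minimum of 1000 genes (900 is the lowest). The deposited label column, of unit other, gives each cell's subtype and was used unchanged. Bulk read counts of 6 sorted CD31+ libraries at P0 were deposited by the authors as whole counts, made with STAR 2.5.3a and HTSeq, and served as levels only. Positions are from GENCODE for GRCm38.

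UMIs were summed per library over all cells labelled EnA, EnC or EnVL. CPM are counts per 1000000 UMIs of that sum. Genes were filtered with filterByExpr and tested with edgeR 4.0.16 in R 4.3.3 (TMM factors, quasi-likelihood test, Benjamini-Hochberg adjustment over all genes tested, threshold 0.05). Standard errors are the log2 fold change divided by the root of F. The difference between endothelium and fibroblasts was tested over 12 sums with the library as a term. Shares were compared with two-sided exact permutation tests. The code was tested on simulated data. DESeq2 and other alternatives are given with the limits.

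The members and gene lists were chosen with earlier results of these data known. Genes are named by a rule: *Tbx1* and *Crkl*, those that pass, the 10 next by p where fewer than 10 pass, the 2 of smallest p of each list, and the 5 of smallest p in the test of the difference. The glucocorticoid, clock and nonclassical class I lists, and their members named here, were added after values were seen. The study's methods give 3 of each genotype without saying whether a library is 1 animal, so p-values measure the spread between libraries only. Intervals and floors cover counting error only.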

Additional observations from a re-analysis of the deposited data

Results flagged for a closer look

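The genotype effect of 17 genes differed between pooled endothelium and pooled fibroblasts by the interaction term of edgeR (adjusted p under 0.05, 3 against 3 libraries). The values here are the log2 effect in endothelium minus that in fibroblasts. It was lower in endothelium for *Jag2* (-1.82), *Ccdc88c* (-1.82), *Cd93* (-1.56), *Cldn5* (-1.27), *Icam2* (-1.26), *Gmpr* (-1.17), *Slc46a2* (-0.97), *Gas6* (-0.93), *H2-K1* (-0.90), *Myo10* (-0.90), *Pdlim1* (-0.82), *Cxcl12* (-0.82), *Prss16* (-0.81) and *Krt8* (-0.74). It was higher in endothelium for *Gm12840* (1.67), *Stc1* (1.53) and *Anxa1* (0.96). *Stc1*, which encodes the secreted glycoprotein stanniocalcin, was at 47.1, 82.4 and 71.7 CPM in *Tbx1*+/-*Crkl*+/- endothelium against 48.7, 55.4 and 41.7 in WT, and at 11.6, 7.66 and 9.78 against 15.3, 22.2 and 15.7 in fibroblasts. With mural cells in place of fibroblasts the difference of *Cd93* was -0.13 (adjusted p 0.97 by edgeR). None of the 17 changed sign under the 9 alternatives, and *H2-K1* passed in 6 of them, more than any other of the 17. The part of RNA from other cell types in these 17 differences was not tested.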

How the results depend on the processing

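In pooled endothelium the counts of 1 higher and 0 lower gene were 10 and 6 with no filter on low counts, and 0 to 5 and 0 to 3 when 1 library was left out: 5 and 3 without the third *Tbx1*+/-*Crkl*+/- library, none without the second WT library and 1 lower gene (*Igf1*) without the third WT library. The other alternatives (DESeq2, RLE factors, library totals, cells with more than 1000 genes, equal subtype mix, thinned sums and the replicate block) gave 1 and 0, and the gene was *Zbtb16*. Without the filter the calls included *Prg4*, *Pth*, *Chga*, *Hbb-bs* and *Trbc2*. In EnC a block on replicate number added *Nts* as 1 lower gene; leave-one-out fits, added after seeing the data, gave 1 to 3 higher genes and 0 lower in EnC, and 0 to 1 of either direction in EnVL. Whether the replicate numbers pair the libraries is not given in the sources used here. The correlations of same-numbered deviations were 0.12, -0.01 and -0.32, too few to settle it. The block gave 1 higher and 0 lower gene in pooled endothelium and no call in EnVL. In the test against fibroblasts, 3 higher and 14 lower effects became 24 and 58 with no filter, 1 and 8 with mural cells in place of fibroblasts, and 0 to 16 and 0 to 35 with 1 library left out (16 and 35 without the first *Tbx1*+/-*Crkl*+/- library, 10 and 19 without the first WT library, 3 and 4 without the third *Tbx1*+/-*Crkl*+/- library). The causes of these shifts were not tested. The difference in the share of endothelium stayed positive under all alternatives, 0.53 of all labelled cells and 3.01 among cells with more than 1000 genes, and 1.99 to 4.27 with 1 library left out. Of 803 values for 58 named genes, 781 kept direction and side of the threshold, 14 newly passed and 7 changed sign: *Crkl* at 0.00771 with library totals and 0.0954 with thinned sums, and with 1 library left out from -0.11 to 0.029 for *Crkl*, -0.027 to 0.64 for *Plpp1*, -0.37 to 0.14 for *Ccdc88c* and -0.33 to 0.039 for *Myo10*. Depth limits scarce genes most: the smallest sum held 382359 UMIs.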
